A study of Ovis aries with 40 samples.

Results

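The genes described here belong to families that move chloride, bicarbonate or other ions across cell membranes, apart from *CFTR*, the chloride channel gene that is disrupted in cystic fibrosis (CF). They are *ANO1*, *ANO6* and *ANO9* of the anoctamin family, the anion transporter gene *SLC26A9*, the chloride channel gene *CLCN2*, the chloride loader gene *SLC12A2* and the bicarbonate transporter gene *SLC4A4*. The members were taken by gene symbol, so that they make up 7 of the 24478 genes in the count tables, and all 7 passed the filter on low counts in every fit. The study itself singled out *ANO1*, *ANO9* and *SLC26A9* on these libraries, so their directions are not independent evidence.

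The study followed lung development in American Romney sheep, wild-type (WT) and *CFTR*-/- (CF), by bulk RNA-seq of proximal and distal lung after 65, 80, 100 and 120 days of gestation and around birth (term). There were 2 libraries for each of 20 conditions, 40 in all, and normalized levels are given here as CPM (counts scaled to a common library total) after trimmed mean of M values (TMM) scaling. The CF animals came from somatic cell nuclear transfer with a single modified male fetal cell line, whereas the WT animals were bred naturally. Clone, sex, mode of conception and genotype thus cannot be told apart. The WT term lambs were born naturally and later euthanized, and the paper names the time of tissue collection after birth as a factor in term lungs. Mode of delivery and time alive after birth therefore cannot be told apart from genotype at term. No animal was given a treatment that the labels name. By the labels, the proximal and distal libraries of a condition came from the same animals, so agreement between the regions is not a second replication. The labels give the 2 WT libraries of a region at 100 days the same animal, and a further animal label is shared by a 65-day WT library and a 100-day CF library of each region, although these differ in genotype and age.

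Depth followed genotype before term, and in WT it also followed age. The 16 WT libraries from 65 to 120 days held 24670355 to 43700012 counted reads and the 16 CF libraries 85773994 to 103139483, while the 8 term libraries held 115937437 to 126749480. In the step to term, depth thus cannot be told apart from age in WT, nor from the difference between the genotypes in that step. With all libraries thinned to 24670355 reads, the differences between CF and WT called below at an adjusted p of 0.05 were called again, except *CLCN2* at 80 days and *SLC26A9* at term in distal lung and the *CLCN2* difference in the step to term. The WT steps of *ANO1* and *SLC12A2* from 120 days to term were also called again. The samples are labelled as epithelial tissue, and epithelial markers (9 of 10 listed genes in the tables) summed to 517 to 2196 CPM, but 8 mesenchymal markers, 6 endothelial markers and 7 smooth muscle markers were also present in every group. *CFTR* itself, whose transcript is targeted in exon 2, was at 9.58 to 43.8 CPM in WT and 3.65 to 34.9 CPM in CF, and both CF libraries lay below both WT libraries at 5 of 5 time points in each region, as for 2.02% of genes tested in proximal and 1.49% in distal lung. In bulk tissue, fewer cells of a type and less RNA per cell cannot be told apart. Replicates of some pairs differed widely in both genotypes. Summed secretory airway markers (6 of 8 in the tables) were at 112 and 3621 CPM in the CF proximal 120-day pair. The CF distal term pair had 1031 and 3076 CPM. WT pairs also differed, with 967 and 5691 CPM in distal lung at term and 31.9 and 373 CPM in proximal lung at 120 days. The 8 alveolar type 2 markers summed to 12299 and 30952 CPM in the CF proximal term pair. Calls were repeated without CF proximal replicate 2 at 120 days and CF replicate 1 at term of both regions, a choice made after seeing the data. No WT library was left out in this repeat.

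In the fetal lung, epithelial cells secrete chloride into the lumen, and water follows, which keeps the developing airspaces filled with liquid. Chloride enters the cell from the blood side with sodium and potassium through the cotransporter encoded by *SLC12A2*, and leaves through channels in the luminal membrane. CFTR is a cyclic AMP-regulated exit, and the calcium-activated channel encoded by *ANO1* (TMEM16A) is another. SLC26A9 and the channel encoded by *CLCN2* have been considered as further routes, while the sodium bicarbonate cotransporter encoded by *SLC4A4* brings in bicarbonate from the blood side. Near birth the lung turns from secretion of liquid to its absorption.

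For the members whose transcripts the study also measured by RT-qPCR, the primers show which sheep sequences were targeted. Each has 20 bases, is written 5′ to 3′, and no part is capitalized because no position is singled out.
ANO1 forward: cttcaaaggccggtttgtcg
ANO1 reverse: tgcagagttccatcaggcag
SLC26A9 forward: agctttgtggacctgatggg
SLC26A9 reverse: catcgtacacctgggcatga

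In the sheep genome Oar_v4.0 the members lie on 6 chromosomes, with *ANO1* and *ANO9* on the same one. *ANO1* is at chr21:46438353-46544132 on the forward strand, with 32 exon blocks and 4985 exonic bases. *ANO9* is at chr21:49517069-49533672 on the forward strand, with 24 exon blocks and 3313 exonic bases. *ANO6* is at chr3:140753874-140986804 on the reverse strand, with 21 exon blocks and 7942 exonic bases. *SLC26A9* is at chr12:2935470-2963781 on the reverse strand, with 21 exon blocks and 11230 exonic bases. *CLCN2*, at chr1:200883594-200898785 on the forward strand, has 23 exon blocks and 3252 exonic bases. It shares 80 of these with *FAM131A* on the opposite strand, whose reads cannot be told apart from it where the counting ignored strand. *SLC12A2* is at chr5:23258466-23352403 on the reverse strand, with 28 exon blocks and 7480 exonic bases. *SLC4A4* is at chr6:86007488-86366103 on the forward strand, with 27 exon blocks and 14295 exonic bases.

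Per kilobase of exon, the members fell into a high and a low set. The median level over 40 libraries was 25.4 CPM per kilobase for *SLC12A2*, 14.9 for *ANO1* and 11.6 for *ANO6*. *CLCN2* followed at 2.03 CPM per kilobase, *SLC26A9* at 1.82, *ANO9* at 0.976 and *SLC4A4* at 0.416. The widest range belonged to *ANO1*, whose highest library was 25.4 times its lowest in CPM, and the narrowest to *ANO6*, at 2.48 times. *ANO9* had the lowest counts, with 42 to 887 reads in a library.

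**Figure D1:**
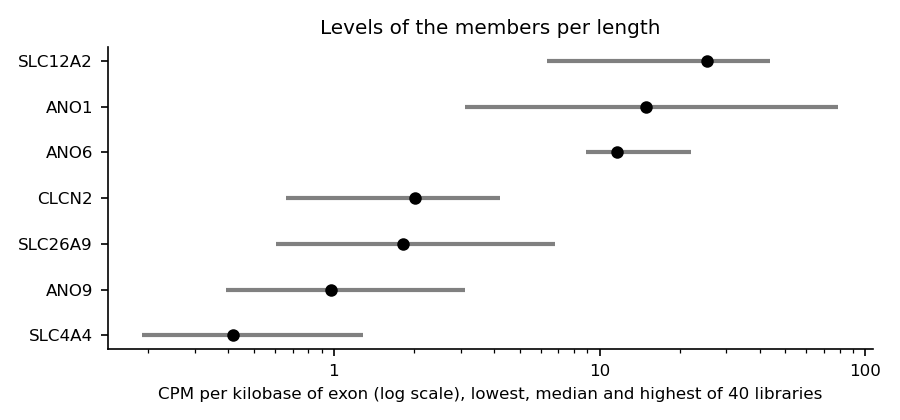
Level of each member per kilobase of exon (x axis, CPM per kilobase, log scale), with the point at the median and the line from the lowest to the highest of 40 libraries. Medians run from 0.416 for *SLC4A4* to 25.4 for *SLC12A2*, and the line for *ANO1* is the longest.

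*ANO1* rose through gestation in WT lung of both regions and did so far less in CF lung, so that CF libraries were above WT early and below WT at term. In WT proximal lung its 2 libraries had 17.8 and 24.9 CPM at 65 days, 32.9 and 31.6 at 80 days, 74.1 and 74.2 at 100 days, 133 and 144 at 120 days, and 346 and 395 at term. WT distal lung had 15.5 and 23.5 CPM at 65 days, 28.6 and 24.8 at 80 days, 59.7 and 62.8 at 100 days, 112 and 123 at 120 days, and 365 and 336 at term. In both WT regions every time point lay above the one before without overlap of libraries. CF proximal lung had 56.4 and 55.5 CPM at 65 days, 49.3 and 54.7 at 80 days, 77.8 and 81.4 at 100 days, 80.1 and 112 at 120 days, and 101 and 119 at term. CF distal lung had 62.5 and 49.8 CPM at 65 days, 49.7 and 58.1 at 80 days, 79.4 and 74.3 at 100 days, 84.8 and 104 at 120 days, and 118 and 93.4 at term. Both CF proximal libraries at term were below both WT proximal libraries at 120 days, and in distal lung these pairs overlapped.

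**Figure D2:**
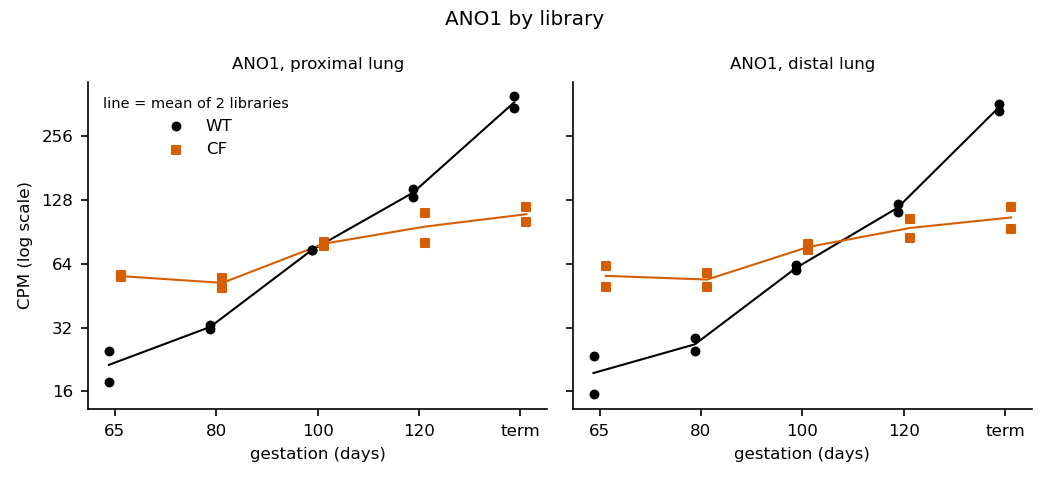
*ANO1* in each library (points, CPM on a log scale) against gestation (time points drawn at equal spacing), in proximal and distal lung, with lines through the mean of 2 libraries. WT climbs from 15.5 to 24.9 CPM at 65 days to 336 to 395 CPM at term, whereas CF goes from 49.8 to 62.5 CPM to 93.4 to 119 CPM, and the lines cross between 100 and 120 days.

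Over the WT proximal time course *ANO1* was 4.11 higher at term than at 65 days on the log2 scale (edgeR's quasi-likelihood test with Benjamini-Hochberg adjustment, as for all adjusted p values, adjusted p = 2.47e-06 for any change), and over the WT distal course 4.14 higher (adjusted p = 8.36e-06). The CF distal course gave 0.95 (adjusted p = 0.0122) and the CF proximal course 0.98 (adjusted p = 0.082), which did not pass. The CF distal call was lost without CF replicate 1 at 80 days (adjusted p = 0.0618). From 120 days to term *ANO1* rose in WT proximal lung by 1.42 (SE 0.16, adjusted p = 5.48e-04) and in WT distal lung by 1.56 (SE 0.18, adjusted p = 0.00116). In CF the same step was 0.16 (SE 0.24, adjusted p = 0.822) in proximal and 0.16 (SE 0.19, adjusted p = 0.562) in distal lung. The WT steps on either side of 100 days also passed an adjusted p of 0.05, with 1.18 in proximal and 1.20 in distal lung for the earlier step and 0.92 and 0.94 for the later, but none of these 4 did with the 2 WT libraries at 100 days, which carry the same animal label, summed as 1, and each passed in 4 or 6 of 10 fits that left out 1 library.

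CF and WT differed in *ANO1* in opposite directions at the ends of the course. At 65 days *ANO1* was higher in CF by 1.39 (SE 0.20, adjusted p = 0.0211) in proximal and 1.52 (SE 0.21, adjusted p = 0.00145) in distal lung, and at 80 days by 0.69 (SE 0.20, adjusted p = 0.211) and 1.01 (SE 0.20, adjusted p = 0.0122). The differences at 100 days, 0.10 and 0.31, and at 120 days, -0.53 and -0.31, did not pass. At term *ANO1* was lower in CF, with a log2 difference of -1.76 (SE 0.20, adjusted p = 3.63e-04) in proximal and -1.70 (SE 0.21, adjusted p = 2.12e-04) in distal lung. Averaged over the 4 time points before term *ANO1* was higher in CF by 0.63 (SE 0.10, adjusted p = 3.23e-04) in distal lung, and the proximal mean, 0.41 (SE 0.10, adjusted p = 0.0106), lay under the fold limit. The distal mean also fell under that limit with the length trend removed (0.51) and without WT replicate 1 at 65 days (0.56). Both CF libraries were above both WT libraries at 65, 80 and 100 days and below them at 120 days and term, in both regions. Of all genes tested, 20.1% in proximal and 23.9% in distal lung had both CF libraries above both WT libraries at 3 or more time points, and 30.5% and 37.6% had both below at 2 or more. The order of *ANO1*, above at the first 3 and below at the last 2 time points, was that of 0.0197% and 0.119% of genes, a share computed after the order was seen. The 65-day proximal difference did not pass when any of its 4 libraries was left out (highest adjusted p = 0.188) or with the length trend removed (0.0544), and the 80-day distal difference did not without 3 of its 4 libraries (highest adjusted p = 0.161), while both term differences passed an adjusted p of 0.05 whichever library was left out.

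The change between genotypes was tested directly. From 120 days to term the CF change in *ANO1* was smaller than the WT change by a log2 difference of -1.22 (SE 0.28, adjusted p = 0.0435) in proximal and -1.39 (SE 0.29, adjusted p = 0.00934) in distal lung. From 65 days to term, a comparison chosen after seeing the data, the difference was -3.15 (SE 0.29, adjusted p = 6.80e-04) in proximal and -3.22 (SE 0.29, adjusted p = 8.00e-05) in distal lung. Of 20344 genes, 1 passed the stricter limit (an adjusted p up to 0.001 with a log2 change of at least 0.58) in that proximal comparison, and it was *ANO1*, which was also 1 of 25 genes in distal lung (0.00492% and 0.124% of genes tested). These counts depended on the fit, with 0 in proximal lung with RLE size factors, with glmTreat and with the WT 100-day libraries summed, 71 in the fit of all 40 libraries and 271 with DESeq2, and 7 to 669 in distal lung. *ANO1* passed at an adjusted p of 0.05 whichever library was left out. In the step to term 1.78% of genes in proximal and 9.31% in distal lung passed, and the proximal difference passed in 4 of 20 fits that left out 1 library and under 5 of 9 other settings.

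Markers of smooth muscle, a cell type that is also known to express *ANO1*, had higher sums in CF at 65 and 80 days and lower sums at term, as *ANO1* had, but not the same direction as *ANO1* at 120 days. The 7 smooth muscle markers in the tables (of 8 listed) summed to 297 to 772 CPM in WT proximal and 306 to 791 CPM in WT distal libraries before term, and to 782 to 1537 and 664 to 1579 CPM in CF. At term the order was the reverse, with 623 to 945 and 999.7 to 1014 CPM in WT against 280 to 559 and 315 to 475 CPM in CF. Averaged over the 4 time points before term all 7 were above WT in each region, with 7 called in proximal and 6 in distal lung at an adjusted p of 0.05, and at term all 7 were below WT, with 3 (proximal) and 5 (distal) called. At 120 days the markers were higher in CF, with a median log2 difference of 1.12 in proximal and 1.34 in distal lung and 1 and 3 of 7 called, while both CF libraries were below both WT libraries in *ANO1*. No marker of the list was at 0 in all libraries. Of 9 epithelial markers, 4 had higher values in CF at 65 days in each region (median log2 difference -0.05 in proximal and -0.19 in distal lung), and 0 were called in proximal and 1, lower, in distal lung. At term 1 of 9 had a higher value in CF proximal and 2 in CF distal lung (median -0.35 and -0.65), and 0 were called in proximal and 2, both lower, in distal lung. In proximal lung the CF libraries lay on either side of the WT pair in the summed markers, and in distal lung the sum was 2096 to 2196 CPM in WT and 1234 to 1861 CPM in CF. Alveolar type 1 markers, 7 of 7 in the tables, summed at term to 4738 to 5615 CPM in WT proximal and 5503 to 5584 CPM in WT distal lung, against 1663 to 2335 and 1603 to 3159 CPM in CF. Of 6 macrophage markers, 0 had a higher value in CF at term in each region (median -1.69 and -1.26). Of these, 5 were called lower in proximal and 4 in distal lung, where 6.08% and 14.4% of all genes were called either way. From 120 days to term in WT, epithelial markers were higher for 9 of 9 in each region, with 7 (proximal) and 6 (distal) called. Alveolar type 2 markers were higher for 8 of 8 (7 and 8 called) and macrophage markers for 6 of 6 (6 called in each). Mesenchymal markers had 6 and 4 called lower. Of all genes, 11.3% and 11.8% were called higher and 8.78% and 10.5% lower. In CF distal lung, 7 epithelial and 5 macrophage markers were called higher (11.5% of all genes). The part of any of these cells in the *ANO1* values was not tested.

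**Figure D3:**
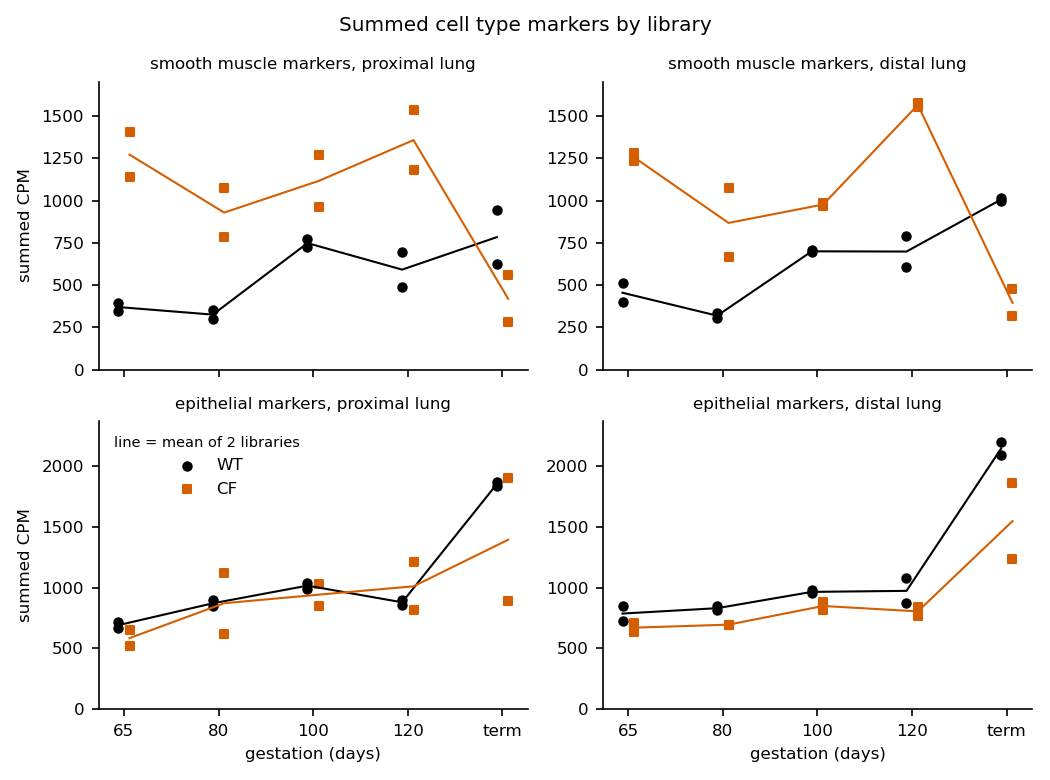
Summed CPM of smooth muscle markers (top, 7 genes) and epithelial markers (bottom, 9 genes) in each library against gestation, with lines through the mean of 2 libraries. Smooth muscle markers are higher in CF than in WT libraries of the same age from 65 to 120 days and lower at term, while epithelial sums before term run from 517 to 1208 CPM over both genotypes.

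*ANO6*, a calcium-dependent phospholipid scramblase that also carries ions, was the steadiest member. WT proximal libraries ran from 72.2 to 90.7 CPM from 65 to 100 days and from 119 to 135 CPM at 120 days and term, and WT distal libraries from 70.6 to 88.8 CPM and from 84.9 to 133 CPM. CF proximal libraries ran from 71.6 to 169 CPM, and these extremes were the 2 libraries at 120 days. In CF distal lung *ANO6* had 76.2 and 71.6 CPM at 65 days and 135 and 138 CPM at term. *ANO6* changed over time in WT proximal (log2 0.72 from 65 days to term, adjusted p = 0.0015), WT distal (0.44, adjusted p = 0.0249) and CF distal lung (0.91, adjusted p = 0.0154), and in CF proximal lung had 0.73 (adjusted p = 0.605). The WT distal change was lost with the 2 WT 100-day libraries summed (adjusted p = 0.0624), in the fit of all 40 libraries (0.104) and in 6 of 10 fits that left out 1 library, and the CF distal change was lost without either of the 65-day libraries (0.0517 and 0.0611). Its rise from 100 to 120 days in WT proximal lung, 0.64 (SE 0.12, adjusted p = 0.029), was not called with the WT 100-day libraries summed (adjusted p = 0.123), in the fit of all 40 libraries (0.334) or in 6 of 10 fits that left out 1 library. At none of the 10 comparisons of CF with WT at a time point did *ANO6* pass. Its mean difference over 5 time points in distal lung, 0.28 (SE 0.08, adjusted p = 0.0122), lay under the fold limit. Its largest difference was 0.47 at term in distal lung (SE 0.17, adjusted p = 0.079), where 135 and 138 CPM in CF stood above 116 and 84.9 CPM in WT.

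*ANO9*, an anoctamin for which both scrambling and channel regulation have been described, was low throughout and higher in CF than in WT in the mean over time. WT proximal lung had 2.37 and 3.16 CPM at 65 days, 3.97 and 3.65 at 80 days, 2.21 and 2.14 at 100 days, 1.32 and 2.24 at 120 days, and 1.3 and 1.62 at term. WT distal lung had 3.06 and 1.51, 3.83 and 3.33, 1.44 and 1.98, 2.11 and 2.30, and 2.16 and 2.72 CPM in the same order. WT libraries were thus highest at 80 days. CF proximal lung had 3.81 and 1.89 CPM at 65 days, 4.31 and 5.04 at 80 days, 6.47 and 9.53 at 100 days, 3.28 and 10.3 at 120 days, and 3.28 and 3.17 at term. CF distal lung had 3.67 and 2.27, 3.34 and 3.19, 7.51 and 6.98, 3.68 and 5.59, and 4.03 and 6.12 CPM. Both CF libraries were above both WT libraries at 80 days to term in proximal lung, 4 of 5 time points, as for 11.2% of genes tested, and at 100 days to term in distal lung, 3 of 5, as for 23.9%.

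Averaged over the 5 time points *ANO9* was higher in CF by 1.06 (SE 0.23, adjusted p = 0.00531) in proximal and 0.90 (SE 0.17, adjusted p = 0.00126) in distal lung. At single time points it passed at 100 days in distal lung alone (2.06, SE 0.40, adjusted p = 0.00989), and there not with the WT libraries of the shared animal label summed (adjusted p = 0.134) or with any of its 4 libraries left out (0.071 to 0.152). In proximal lung at 100 days the difference was 1.88 (SE 0.52, adjusted p = 0.136) and at 120 days 1.93 (SE 0.52, adjusted p = 0.0828). Without the time points at 100 days and term, a choice made after seeing the data, the mean difference was 0.76 (SE 0.29, adjusted p = 0.0989) in proximal and 0.44 (SE 0.22, adjusted p = 0.163) in distal lung. The CF proximal pair at 120 days, 3.28 and 10.3 CPM, also differed in secretory airway markers, and the part of these cells was not tested. *ANO9* passed in no time course.

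*SLC26A9*, an anion transporter of airway and stomach epithelium that interacts with CFTR, was higher in CF in the mean over time, with large gaps between CF replicates. In WT proximal lung it had 8.87 and 8.46 CPM at 65 days, 20.1 and 35.9 at 80 days, 20.5 and 17.5 at 100 days, 19.6 and 28.4 at 120 days, and 12.6 and 16.8 at term. WT distal lung had 7.06 and 6.81, 16.4 and 25, 31 and 34.2, 14.6 and 18.1, and 12.8 and 16.5 CPM in the same order. The lowest WT libraries were those at 65 days in both regions. In CF proximal lung the values were 20.4 and 20.1 CPM at 65 days, 27 and 62.6 at 80 days, 29.2 and 40.6 at 100 days, 28.2 and 51.5 at 120 days, and 61.8 and 18.7 at term. CF distal lung had 16.4 and 18.9, 34.5 and 66.9, 44.5 and 61.4, 31.6 and 38.6, and 76.6 and 13.5 CPM. Both CF libraries were above both WT libraries at 65, 100 days and term in proximal lung and at 65 to 120 days in distal lung, which 20.1% (3 or more time points) and 13% (4 or more) of genes tested also showed.

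The mean difference of *SLC26A9* over 5 time points was 0.99 (SE 0.23, adjusted p = 0.0079) in proximal and 1.22 (SE 0.24, adjusted p = 0.00141) in distal lung, and over the 4 before term 0.88 (SE 0.26, adjusted p = 0.0269) and 1.11 (SE 0.26, adjusted p = 0.00525). The proximal mean before term was lost when any of 9 of the 20 libraries was left out, and with the WT 100-day libraries summed (adjusted p = 0.0564). Averaged over 65, 80 and 120 days, a choice made after seeing the data, the proximal difference did not pass (0.88, SE 0.30, adjusted p = 0.0624). The distal one did (1.25, SE 0.31, adjusted p = 0.00895). The difference at term in distal lung, 1.65 (SE 0.53, adjusted p = 0.0497), was lost when any of 19 of the 20 libraries was left out, and without CF distal replicate 1 at term the value was -0.14 (adjusted p = 0.835). In that term pair replicate 1, with 76.6 CPM of *SLC26A9*, had 35414 CPM of alveolar type 2 markers against 8723 in replicate 2, but 9.35 against 308 CPM of basal airway, 1031 against 3076 of secretory airway and 1234 against 1861 of epithelial markers. The part of these cells was not tested. *SLC26A9* changed over time in WT proximal (adjusted p = 0.00962) and WT distal lung (adjusted p = 0.00138), the former not in the fit of all 40 libraries (0.163), but no consecutive step passed. The steps from 65 to 80 days were 1.68 (SE 0.29, adjusted p = 0.252) and 1.57 (SE 0.24, adjusted p = 0.277) in WT, and 1.16 (SE 0.61, adjusted p = 1) and 1.54 (SE 0.64, adjusted p = 0.282) in CF.

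Marker genes of several cell types were set beside *ANO9* and *SLC26A9*, in the difference of CF from WT averaged over 5 time points. Epithelial markers had higher values in CF for 5 of 9 in proximal lung, with 1 called lower, and for 2 of 9 in distal lung, with 0 called (median log2 difference 0.05 and -0.22). Ciliated airway markers had higher values in CF for 4 of 8 in proximal lung, with 0 called, and for 0 of 8 in distal lung, with 3 called lower (median -0.01 and -0.98). Secretory airway markers had higher values for 3 of 6 and 1 of 6, with 0 called in proximal and 1 called lower in distal lung (median 0.25 and -1.47). Basal airway markers had higher values for 4 of 4 in proximal lung, with 1 called higher, and for 1 of 4 in distal lung, with 1 called higher and 1 lower (median 1.10 and -1.22). Of 3 ionocyte markers tested, 1 had a higher value in each region, with 0 called in proximal and 1 called lower in distal lung (median -0.07 and -0.94). Alveolar type 2 markers had higher values in CF for 7 of 8 in each region, with 1 called in proximal and 3 in distal lung (median 0.22 and 0.52). Alveolar type 1 markers had higher values for 1 of 7 in each region, with 1 called higher and 1 lower in proximal and 3 called lower in distal lung (median -0.31 and -0.49). Smooth muscle markers had higher values for 7 of 7 in each region, with 6 and 3 called, and cartilage markers (6 of 7 listed genes in the tables) for 6 of 6 and 3 of 6, with 2 and 3 called. Mesenchymal markers had higher values for 7 of 8 in each region, with 2 called in proximal and 0 in distal lung, and endothelial markers for 4 of 6 and 6 of 6, with 1 called in each. Macrophage markers had higher values for 1 of 6 and 2 of 6, with 2 called lower in each region and 1 called higher in distal lung. Red cell markers had 0 called, and neuronal markers 1 called higher in each region and 1 lower in distal lung. Beside these counts, 10.1% of all genes were called higher and 3.51% lower in proximal lung, and 9.87% and 5.34% in distal lung. The part of these cells in the differences was not tested.

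**Figure D4:**
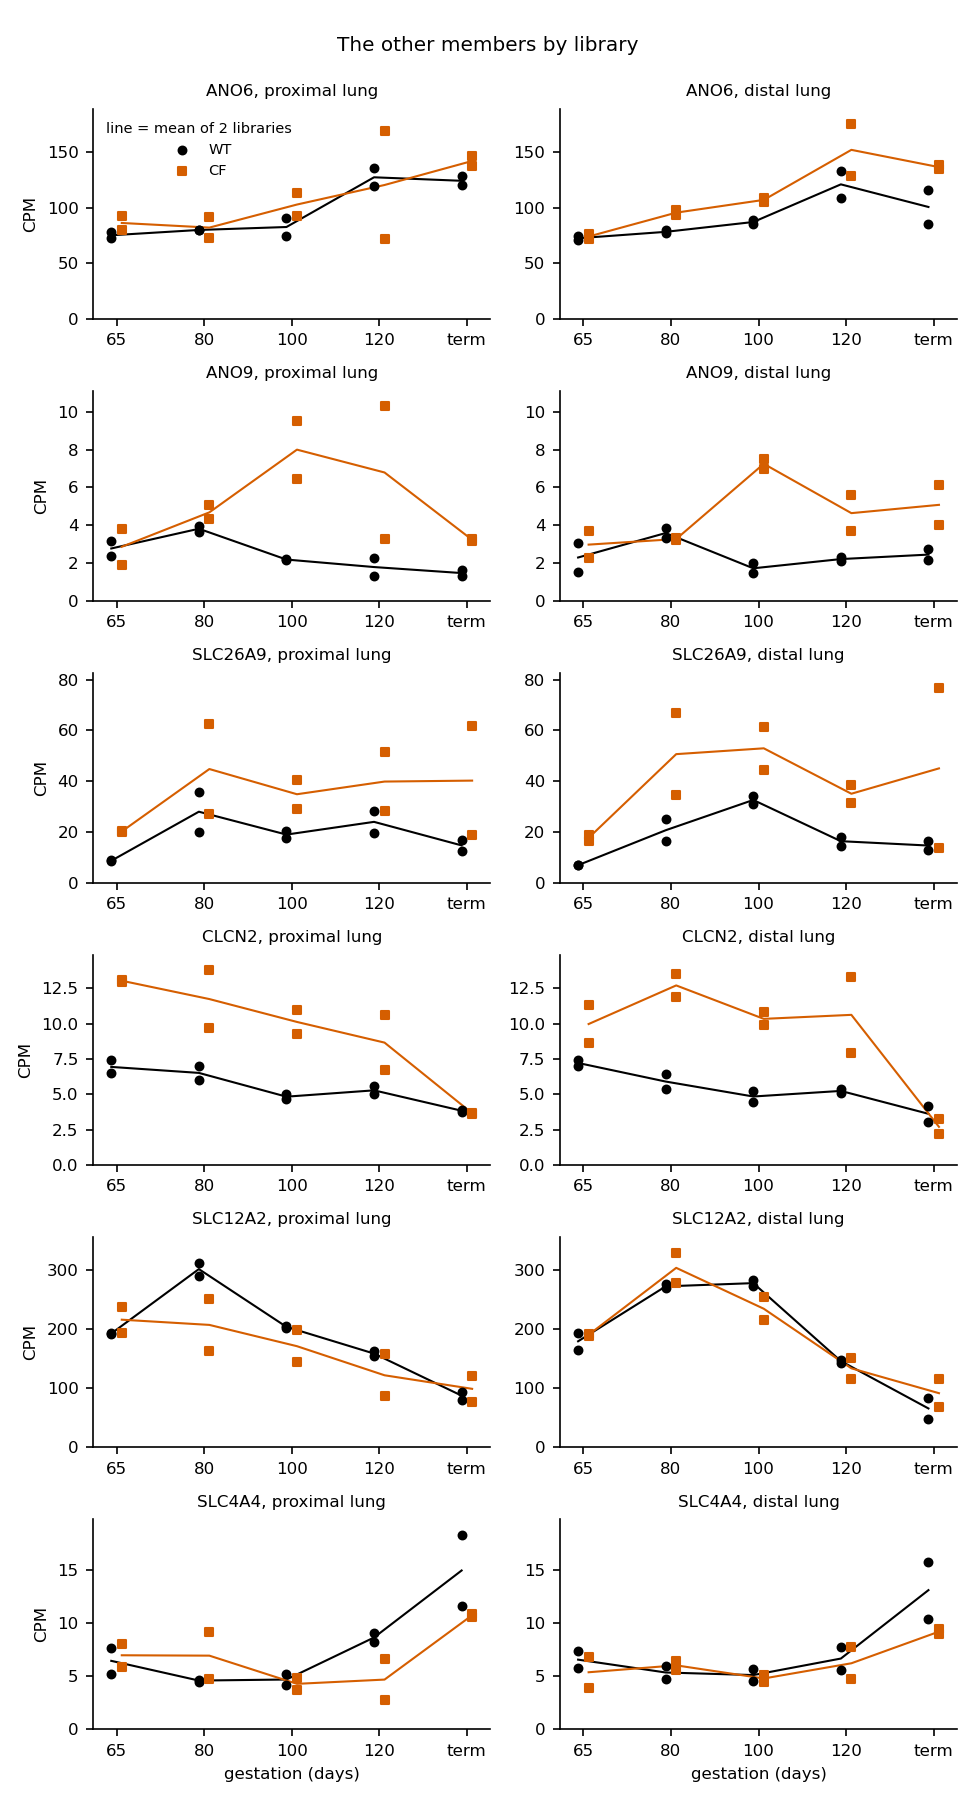
CPM of *ANO6*, *ANO9*, *SLC26A9*, *CLCN2*, *SLC12A2* and *SLC4A4* in each library against gestation (time points at equal spacing, y axes from 0), with lines through the mean of 2 libraries, proximal lung on the left and distal lung on the right. *SLC26A9* replicates in CF spread up to 13.5 and 76.6 CPM at term in distal lung, *CLCN2* is higher in CF until 120 days, with 2.15 to 4.18 CPM in all term libraries, and *SLC12A2* has its lowest WT libraries at term.

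*CLCN2*, which encodes a voltage-gated chloride channel (ClC-2), was higher in CF at every time point before term and not at term. WT proximal lung had 6.47 and 7.39 CPM at 65 days, 7.03 and 5.99 at 80 days, 4.65 and 5 at 100 days, 4.99 and 5.55 at 120 days, and 3.89 and 3.77 at term. WT distal lung had 7.39 and 7.02, 5.37 and 6.42, 4.46 and 5.21, 5.37 and 5.10, and 4.18 and 3.04 CPM in the same order. The term libraries were the lowest in both WT regions. CF proximal lung had 13.1 and 13 CPM at 65 days, 9.70 and 13.8 at 80 days, 11 and 9.24 at 100 days, 10.6 and 6.71 at 120 days, and 3.69 and 3.62 at term. CF distal lung had 11.3 and 8.64, 13.5 and 11.9, 10.8 and 9.87, 13.3 and 7.91, and 3.23 and 2.15 CPM. Both CF libraries were above both WT libraries at all 4 time points before term in each region, as for 8.08% of genes tested in proximal and 10.2% in distal lung.

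Averaged over the 4 time points before term *CLCN2* was higher in CF by 0.88 (SE 0.15, adjusted p = 0.00118) in proximal and 0.92 (SE 0.15, adjusted p = 3.80e-04) in distal lung, and over all 5 by 0.69 (SE 0.13, adjusted p = 0.00249) and 0.66 (SE 0.13, adjusted p = 0.00198). Without the 3 CF libraries named above the distal mean of 5 was 0.57 (adjusted p = 0.00442), just under the fold limit, as it was with the length trend removed (0.57) and without CF replicate 1 at 120 days (0.56). At term the difference was -0.07 (SE 0.29, adjusted p = 0.936) and -0.40 (SE 0.30, adjusted p = 0.402). At single time points it passed at 80 days in distal lung (1.11, SE 0.30, adjusted p = 0.0453), and was called under 6 of 11 other settings (adjusted p 0.00393 to 0.307). It passed in 8 of 20 fits that left out 1 library, and in none of those without 1 of its own 4 libraries (0.147 to 0.269). From 120 days to term *CLCN2* fell in CF distal lung by 2.00 on the log2 scale (SE 0.36, adjusted p = 0.00887), and the same step was -1.28 (SE 0.38, adjusted p = 0.188) in CF proximal, -0.46 (SE 0.25, adjusted p = 0.211) in WT proximal and -0.55 (SE 0.27, adjusted p = 0.166) in WT distal lung. The CF distal fall was lost without CF replicate 2 at term (adjusted p = 0.0515). The difference between the CF and WT steps was -1.43 (SE 0.43, adjusted p = 0.0484) in distal lung, and was lost when any of 17 of the 20 libraries was left out. The smooth muscle markers given beside *ANO1* were, like *CLCN2*, higher in CF before term, but at term they were lower in CF, where *CLCN2* passed in neither region. Their part was not tested.

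*SLC12A2*, the sodium potassium chloride cotransporter NKCC1 that loads secretory cells with chloride, was lowest at term in WT. In WT proximal lung it had 192 and 192 CPM at 65 days, 312 and 290 at 80 days, 201 and 205 at 100 days, 154 and 162 at 120 days, and 80 and 93.6 at term. WT distal lung had 164 and 193, 275 and 268, 282 and 272, 148 and 143, and 82.7 and 47.5 CPM in the same order. Both WT regions thus peaked at 80 or 100 days and were lowest at term. CF proximal lung had 193 and 237 CPM at 65 days, 163 and 250 at 80 days, 197 and 143 at 100 days, 157 and 85.6 at 120 days, and 121 and 75.8 at term. CF distal lung had 191 and 188, 277 and 329, 214 and 253, 151 and 115, and 115 and 67.3 CPM. *SLC12A2* changed over the course in WT proximal (-1.15 from 65 days to term, adjusted p = 5.39e-05), WT distal (-1.49, adjusted p = 7.85e-04) and CF distal lung (-1.03, adjusted p = 0.0091), and in CF proximal lung had -1.12 (adjusted p = 0.357).

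From 120 days to term *SLC12A2* fell by 0.86 on the log2 scale (SE 0.11, adjusted p = 0.00109) in WT proximal and by 1.18 (SE 0.22, adjusted p = 0.00622) in WT distal lung, the former not called in the fit of all 40 libraries (0.0542). The CF steps were -0.33 (SE 0.40, adjusted p = 0.769) and -0.56 (SE 0.27, adjusted p = 0.158), and the difference between genotypes in this step did not pass (0.56 proximal, adjusted p = 0.568, and 0.63 distal, adjusted p = 0.306). *SLC12A2* did not differ between CF and WT past the limits at any time point, with log2 differences from -0.54 to 0.51. Its decline from 80 to 100 days in WT proximal lung, -0.58 (adjusted p = 0.0349), lay at the fold limit and was called under 2 of 9 other settings and in 2 of 10 fits that left out 1 library. The 8 mesenchymal markers also had lower sums at term in WT, with 7908 to 13549 CPM in proximal libraries before term and 3621 to 5758 at term. Other lists went up from 120 days to term in WT. Epithelial markers were higher for 9 of 9 in each region (7 and 6 called), and alveolar type 2 markers for 8 of 8 (7 and 8 called). The part of these cells was not tested.

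*SLC4A4*, the electrogenic sodium bicarbonate cotransporter NBCe1, was highest at term. WT proximal libraries had 4.21 to 9.06 CPM from 65 to 120 days and 18.4 and 11.6 CPM at term, and WT distal libraries 4.52 to 7.72 and 15.8 and 10.4 CPM. CF proximal libraries had 2.72 to 9.17 CPM before term and 10.6 and 10.9 at term, and CF distal libraries 3.89 to 7.73 and 9.47 and 8.95 CPM. *SLC4A4* changed over time in WT proximal (1.21 from 65 days to term, adjusted p = 0.00424) and WT distal lung (0.97, adjusted p = 0.026), and had 0.64 (adjusted p = 0.499) and 0.81 (adjusted p = 0.241) in CF. The WT distal change was lost with the WT 100-day libraries summed (adjusted p = 0.0675) and in 4 of 10 fits that left out 1 library, with 0.147 without term replicate 1. It passed in no comparison of CF with WT, where log2 differences ran from -0.89 at 120 days in proximal lung (SE 0.44, adjusted p = 0.32) to 0.60 at 80 days in proximal lung (SE 0.44, adjusted p = 0.683).

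**Figure D5:**
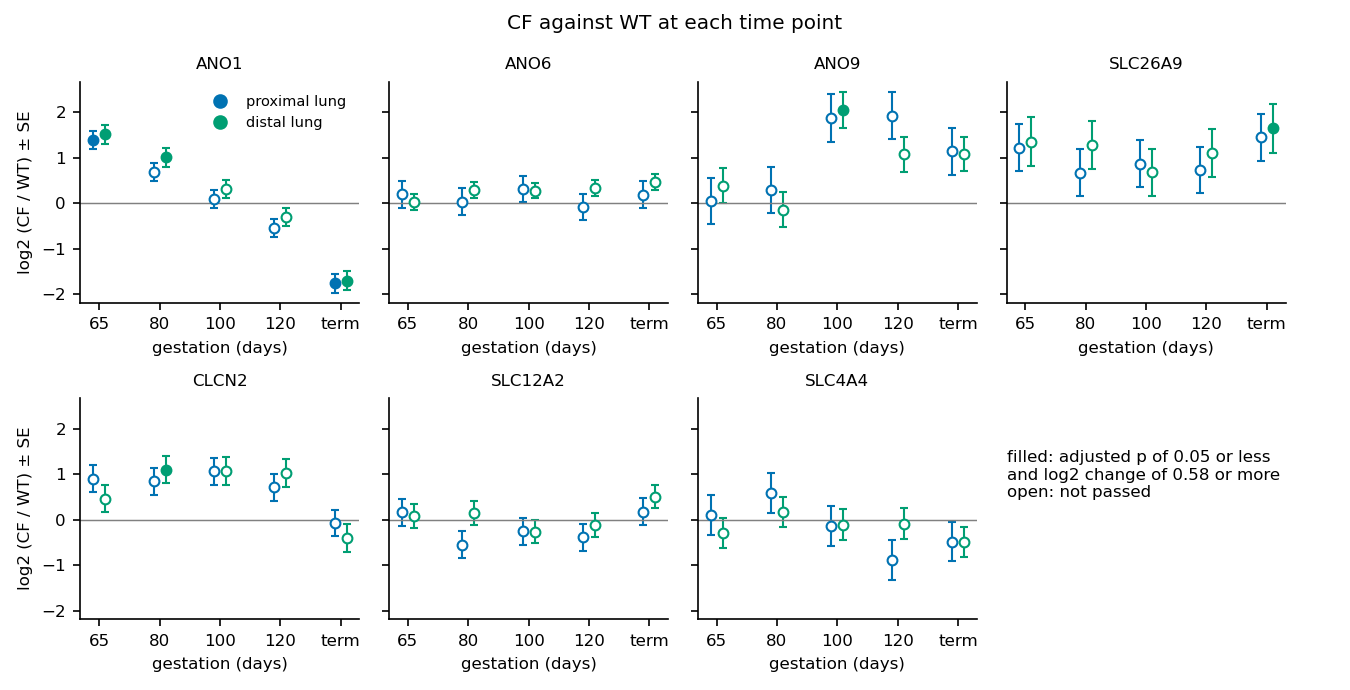
Log2 difference of CF against WT for each member (points, bars ± SE) at each time point, in proximal (blue) and distal lung (green), with filled points for an adjusted p up to 0.05 with a log2 difference of at least 0.58. *ANO1* goes from 1.39 and 1.52 at 65 days to -1.76 and -1.70 at term, *CLCN2* lies between 0.47 and 1.11 until 120 days and at -0.07 and -0.40 at term, and *SLC26A9* between 0.68 and 1.65.

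Counted over the set, the stricter limit called 1 of 112 values between consecutive time points, *ANO1* from 120 days to term in WT proximal lung, where 2.14% of genes were called. With an adjusted p of 0.05 there were 11 of 112. No member was called by edgeR from 65 to 80 days, where 0.011% of genes were called in WT proximal, 0.0164% in WT distal and 0% in both CF regions. In that step 3 members in WT proximal, 3 in WT distal, 0 in CF proximal and 2 in CF distal lung had an unadjusted p under 0.05. In WT proximal lung the calls were 2 members for the step ending at 100 days (1.87% of genes called), 2 for that ending at 120 days (2.57%) and 2 for that ending at term (20.1%). In WT distal lung they were 1 (0.996%), 1 (2.44%) and 2 (22.3%) members for the same steps, and in CF distal lung *CLCN2* from 120 days to term (22.9%). CF distal lung had 0 members called by edgeR from 80 to 100 days (0%) and from 100 to 120 days (0.928%), with 2 at an unadjusted p under 0.05 in each. CF proximal lung had 0 calls by edgeR in any of its 4 steps (0%, 0%, 0.0203% and 0.356% of genes), with 0, 1, 0 and 1 members at an unadjusted p under 0.05, and DESeq2 called 1, *CLCN2* from 120 days to term. Over the whole course at an adjusted p of 0.05, 5 of 7 members changed in WT proximal (40.8% of genes), 5 in WT distal (40.4%), 4 in CF distal (33.9%) and 0 in CF proximal lung (5.36%), where 2 had an unadjusted p under 0.05 and 4 were called in a fit of all 40 libraries. At the stricter p, 2 members changed in WT proximal (10.6% of genes) and 2 in WT distal lung (7.48%), *ANO1* and *SLC12A2* in each, and 0 in CF proximal (0.0254%) and CF distal lung (3.59%). The share of all genes called was thus also lowest in CF proximal lung.

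For CF against WT at single time points the stricter limit called 2 of 70 values, *ANO1* at term in proximal (0.339% of genes) and distal lung (1.25%), and an adjusted p of 0.05 called 8. In distal lung those were 1 at 65 days (5.05% of genes), 2 at 80 days (5.75%), 1 at 100 days (5.07%) and 2 at term (14.4%), and in proximal lung 1 at 65 days (0.167%) and 1 at term (6.08%). The time points with 0 members called were 120 days in distal lung (4.22%) and 80, 100 and 120 days in proximal lung (0.0885%, 0.383% and 1.35%), where DESeq2 called 1, 0, 2 and 1 members and 2, 2, 2 and 3 had an unadjusted p under 0.05. Averaged over 5 time points, 3 of 7 members were called higher in CF and 0 lower in each region, namely *CLCN2*, *SLC26A9* and *ANO9*, where 10.1% of genes were called higher in proximal and 9.87% in distal lung. Over the 4 before term the same 3 were called higher in proximal lung (10.9% of genes) and these and *ANO1* in distal lung (11.5%), where *CLCN2* and *ANO1* passed the stricter limit (6.86%). The median difference of the 7 members over 5 time points was 0.13 in proximal and 0.28 in distal lung, beside 0.04 and 0.01 over all genes tested. Without the 3 CF libraries named above, the same 3 members were called in proximal lung and *ANO9* and *SLC26A9* in distal lung. The opposite signs of *ANO1* cancelled in this mean, which was -0.02 (SE 0.09, adjusted p = 0.921) and 0.17 (SE 0.09, adjusted p = 0.176).

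No difference between the regions of the lung was called in these genes. Averaged over time points, distal minus proximal log2 differences ran from -0.20 to 0.07 in WT and from -0.10 to 0.17 in CF, and edgeR called 0 of 7 members in WT, in CF and in both, with 1, 0 and 0 at an unadjusted p under 0.05. DESeq2 and the fit with animal as a block also called 0. Over all genes an adjusted p of 0.05 called 0.00481% of 20779 genes in WT, 0.00963% in CF and 0.0144% in both. The value outside the others was *ANO1* in WT, -0.20 (SE 0.09, adjusted p = 1), where the block by animal gave -0.20 (SE 0.06, adjusted p = 1).

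Among 88 other genes of the same families and their partners, 78 were in the tables and 76 were tested in proximal and 73 in distal lung for CF against WT averaged over 5 time points. In proximal lung 10 were called higher in CF and 4 lower (10.1% and 3.51% of all genes), and in distal lung 11 were called higher and 7 lower (9.87% and 5.34%). The largest called increase in proximal lung was that of *SLC26A10*, of the same family as *SLC26A9* (log2 1.93, SE 0.19, adjusted p = 4.29e-05). It had 40.2 ± 11.6 CPM in CF and 10.5 ± 4.55 in WT (SD, n = 10 libraries of 5 ages). Next were *SLC9A2*, a sodium proton exchanger (1.26, SE 0.28, adjusted p = 0.00652), and *SLC12A9*, of the family of *SLC12A2* (1.13, SE 0.14, adjusted p = 1.62e-04). Distal lung had *SLC26A10* (2.12, SE 0.14, adjusted p = 2.21e-07) and *SLC9A2* (1.57, SE 0.27, adjusted p = 5.59e-04). It also had *BEST2*, a bestrophin anion channel gene at only 0.138 CPM in CF and 0.0209 in WT (3.85, SE 0.93, adjusted p = 0.00767).

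Among the companions called lower in CF, *ATP1B1*, a subunit of the sodium potassium pump, had 120 ± 45.3 CPM in CF and 216 ± 55.4 in WT proximal lung (SD, n = 10 libraries of 5 ages). Its log2 difference was -0.93 (SE 0.10, adjusted p = 5.92e-05) there and -0.79 (SE 0.08, adjusted p = 4.21e-06) in distal lung. *KCNN4*, a calcium-activated potassium channel gene, differed by -1.30 (SE 0.35, adjusted p = 0.0167) and -1.54 (SE 0.37, adjusted p = 0.00551). *CFTR* differed by -0.86 (SE 0.16, adjusted p = 0.00185) in proximal lung, and in distal lung the largest of the called decreases was *CLCA1*, a secreted modulator of calcium-activated chloride currents (-1.71, SE 0.41, adjusted p = 0.00616).

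From 120 days to term, 10 companions rose and 5 fell of 66 tested in WT proximal lung (11.3% and 8.78% of all genes), and 9 rose and 7 fell of 65 in WT distal lung (11.8% and 10.5%). *CA4*, a membrane-bound carbonic anhydrase known from alveolar capillaries, rose from 0.599 to 60.1 CPM in WT proximal lung (6.64, SE 0.30, adjusted p = 3.66e-05), and by 5.33 in WT distal (SE 0.40, adjusted p = 2.26e-04) and 5.21 in CF distal lung (SE 0.60, adjusted p = 0.00183). *KCNQ1*, a potassium channel gene, rose by 1.61 (SE 0.30, adjusted p = 0.00512) and 1.66 (SE 0.30, adjusted p = 0.00612) in the WT regions. *CA12* rose in WT proximal lung by 4.23 (SE 1.29, adjusted p = 0.0414), with replicates as far apart as 9.10 ± 11.9 CPM (SD, n = 2), and *CA9* rose in WT distal lung by 2.30 (SE 0.41, adjusted p = 0.00564). The steepest fall in both WT regions was that of *SLC4A1*, the red cell anion exchanger, -5.42 (SE 0.85, adjusted p = 0.00247) and -6.61 (SE 0.91, adjusted p = 0.00218). Red cell markers (7 of 8 in the tables) summed to 13.8 to 108 CPM in WT proximal libraries before term and 1.87 to 4.03 at term. The next falls in WT proximal lung were *WNK3*, a kinase that regulates chloride cotransporters (-2.58, SE 0.53, adjusted p = 0.00789), and *CLCN5* (-1.07, SE 0.16, adjusted p = 0.00221). In WT distal lung they were *SLC4A7* (-1.07, SE 0.24, adjusted p = 0.0131) and *SLC12A8* (-1.01, SE 0.30, adjusted p = 0.0388).

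In CF distal lung 5 companions rose and 12 fell of 71 tested (11.5% and 11.4% of all genes), and in CF proximal lung edgeR called 0 of 75 (0.0762% of genes rose and 0.279% fell). Besides *CA4*, *KCNN4* rose in CF distal lung by 3.68 (SE 0.67, adjusted p = 0.00902) and *TTYH1* by 1.74 (SE 0.55, adjusted p = 0.0494). The 3 steepest falls there were *ANO4* (-3.30, SE 0.56, adjusted p = 0.00743), *SLC4A1* (-2.81, SE 0.42, adjusted p = 0.00498) and *SLC4A11* (-2.25, SE 0.55, adjusted p = 0.022).

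Across the 40 libraries, which share age, genotype and animals, members went different ways. *ANO1* and *CLCN2* had a Pearson correlation of log2 CPM of -0.88 over the 20 WT and -0.70 over the 20 CF libraries, and *ANO1* and *SLC12A2* of -0.78 in each. *SLC12A2* and *CLCN2* had 0.70 in WT and 0.82 in CF. *ANO9* and *SLC26A9* had 0.51 over the 40, but 0.05 over the WT and 0.33 over the CF libraries. The genes most like each member among 13703 with a mean log2 CPM of 1 or more were *TTC7A* (0.93) and *INPP5B* (0.92) for *ANO1*, *PTPRB* (0.94) and *CLIP1* (0.94) for *ANO6*, and *ASXL3* (0.95) and *EML4* (0.94) for *SLC12A2*. *CLCN2* was most like *ABCC5* (0.95) and *ADGRL1* (0.95), and 56 genes reached a correlation above 0.9 with it. *SLC4A4* was most like *BST1* (0.86) and *P3H2* (0.85), *SLC26A9* like *PODN* (0.80) and *BMP1* (0.75), and *ANO9* like *MMP11* (0.75) and *LOC101108147* (0.75), with 0 genes above 0.9 for these 3. These values pool genotypes whose means differ. Over the WT libraries alone *SLC26A9* had 0.68 with *PODN* and 0.34 with *BMP1*, and *ANO9* had 0.28 with *MMP11* and 0.59 with *LOC101108147*. Over the CF libraries alone these were 0.70, 0.75, 0.67 and 0.53 in the same order.

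In the order of conditions by mean level, *ANO1* was highest in WT term and lowest in WT 65-day lung in both regions, and *SLC4A4* was highest in WT term and lowest in CF 100-day lung in both. *SLC12A2* was highest at 80 days, in WT in proximal and in CF in distal lung, and lowest in WT term lung. *CLCN2* was highest in CF lung, at 65 days in proximal and 80 days in distal lung, and lowest in CF term lung. *ANO9* was highest in CF lung at 100 days, and lowest in WT lung at term (proximal) or 100 days (distal). *SLC26A9* was highest in CF lung, at 80 days in proximal and 100 days in distal lung, and lowest in WT lung at 65 days. *ANO6* was highest in CF lung, at term in proximal and 120 days in distal lung, and lowest in WT lung at 65 days. Neighbours in that order overlapped in 12 of 19 pairs for *ANO1*, 14 for *SLC12A2*, 17 for *ANO6*, *SLC26A9*, *CLCN2* and *SLC4A4*, and 19 for *ANO9*.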

How the data were processed

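The authors aligned paired 100 bp reads of oligo dT libraries to Oar_v4.0 with STAR and counted reads per gene with featureCounts 1.6.3, and the deposited values are raw counts without normalization. The submitters' processing notes give STAR 2.6, whereas the paper's methods name another version of STAR. The annotation release, strand setting and treatment of mates are not given in the sources used here, and 69.2% to 85.8% of counts from 1 to 20 in a library were even. Tests ran in edgeR 4.0.16 (R 4.3.3): low genes were dropped by filterByExpr (minimum count 10, minimum total 15), libraries were scaled by TMM, and glmQLFit and glmQLFTest in their legacy form gave p values, adjusted by Benjamini-Hochberg over all genes tested. The stricter limit, after the study's methods, was an adjusted p of 0.001 and a log2 change of 0.58, and a further limit was an adjusted p of 0.05 with the same fold. The F test of a whole course had no fold limit. Consecutive time points were fitted in the 10 libraries of a genotype and region, CF against WT in the 20 of a region, and regions in all 40, with 1 mean per condition. CPM used TMM factors over 40 libraries, and log2 CPM for correlations a prior count of 2. Members and lists were chosen with earlier results of these data known. All 7 members were named, and of the companions the 3 with the largest change each way among those past an adjusted p of 0.05. The labels tie both regions to an animal: deviations of the 2 regions correlated above 0.1 in 7 of 10 conditions (-0.47 to 0.85), and the block by animal changed no region call. Alternatives were RLE, DESeq2 1.42.0, glmTreat, no filter, bias-adjusted quasi-likelihood, thinning, a length trend removed (lowess span 0.3), the WT 100-day libraries summed, blocks, pooled fits and each library left out. Scripts were tested on simulated data. Intervals and p values cover these 2 libraries per condition only. RT-qPCR values, the authors' tables of DEGs and the 50-day time point were not used here.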

Additional observations from a re-analysis of the deposited data

Results flagged for a closer look

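In 3 cases changes from 120 days to term differed between the genotypes by a test of the difference itself. For *ANO1* the CF change minus the WT change was -1.22 (SE 0.28, edgeR adjusted p = 0.0435) in proximal and -1.39 (SE 0.29, adjusted p = 0.00934) in distal lung. The distal value passed whichever library was left out, and the proximal one in 4 of 20 such fits. For *CLCN2* in distal lung it was -1.43 (SE 0.43, adjusted p = 0.0484), and this passed in 3 of 20 such fits. Of all genes tested, 1.78% in proximal and 9.31% in distal lung passed in this comparison.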

How the results depend on the processing

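Counts of members called are given at the stricter limit and then, for the larger moves, at an adjusted p of 0.05 with the same fold. Between consecutive time points 1 value was called, against 11 at an adjusted p of 0.05, 14 at an unadjusted p of 0.001, 2 with RLE, 3 without the filter, 13 with DESeq2, 3 with bias-adjusted quasi-likelihood, 0 with glmTreat, 0 with the WT 100-day libraries summed, 3 in a fit of all 40 libraries and 0 to 2 with 1 library left out. At 0.05 the 11 became 18 with DESeq2, 5 with glmTreat, 5 with the WT 100-day libraries summed and 7 to 14 with 1 library left out. Over the time course 4 were called, against 14 at 0.05, 7 at an unadjusted p of 0.001, 9 in the fit of 40 and 3 to 5 with 1 library left out, and at 0.05 the 14 became 12 to 16. For CF against WT at single time points 2 were called, against 8 at 0.05, 6 at an unadjusted p of 0.001, 6 with DESeq2, 0 with glmTreat, 1 with the WT 100-day libraries summed, 1 with the length trend removed, 4 in the fit of 40 and 1 to 3 with 1 library left out. At 0.05 the 8 became 16 with DESeq2, 3 with glmTreat, 5 with the WT 100-day libraries summed, 5 with the length trend removed, 15 without the 3 CF libraries that differed from their partners and 5 to 13 with 1 left out. Averaged over time points 2 were called, against 13 at 0.05, 11 at an unadjusted p of 0.001, 12 with DESeq2, 0 with glmTreat, 0 with the WT 100-day libraries summed, 1 with the length trend removed, 7 in the fit of 40, 6 without the 3 CF libraries and 0 to 5 with 1 left out. At 0.05 the 13 became 1 with glmTreat and 12 to 13 with 1 left out, and the mean of 65, 80 and 120 days, chosen after seeing the data, gave 1 and 4 calls. With the length trend removed, the distal means of *ANO1* before term and of *CLCN2* over 5 time points were lost. The latter was also lost without the 3 CF libraries. With the WT 100-day libraries summed, the *SLC26A9* proximal mean before term was lost. In the difference between genotypes in the change between consecutive time points (the change from 65 days to term, with *ANO1* called in both regions, is not counted) 0 were called, against 3 at 0.05, 2 at an unadjusted p of 0.001 and 1 with DESeq2. At 0.05 the 3 became 1 without the filter, 0 with glmTreat, 1 with the WT 100-day libraries summed and 2 to 5 with 1 left out. The proximal *ANO1* difference was also lost with RLE (adjusted p = 0.0509), and the distal *CLCN2* difference with thinning (adjusted p = 0.0665). Between the regions 0 members were called under all alternatives run. *SLC26A9* at term in distal lung reversed, to -0.14, without the 3 CF libraries, and ran from -0.14 to 2.38 with 1 library left out. The cause of these moves was not tested. DESeq2 and glmTreat were not run for the whole course.

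With the replicate number as a block, 1 and 11 values between consecutive time points, 4 and 14 over the course, 2 and 10 at single time points (8 without the block), 2 and 13 in the means and 0 and 3 in the difference in change were called at the 2 limits. The decline of *SLC12A2* from 80 to 100 days in WT proximal lung was lost under the block. Same-numbered libraries deviated together (correlation above 0.1) in 17 of 40 pairs of time points and 5 of 10 pairs of genotypes, so the number was not taken to pair them. Between regions the block by animal called 0 members, also with CF 65-day and 80-day numbers crossed, a choice made after seeing the data.

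With 2 libraries in a condition, differences at single time points were poorly resolved for some members: the SE of the CF and WT difference was near 0.5 for *SLC26A9* and for *ANO9* in proximal lung, and near 0.3 for *CLCN2*. Depth and genotype cannot be told apart before term, nor depth and age in the WT step to term. Thinning evens out the number of reads, but not any other difference between the shallow and the deep libraries.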
